A study of Rattus norvegicus with 2 samples.

Results

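The tumor necrosis factor (TNF) ligand and receptor superfamilies were examined in thymus RNA of 1 rat administered cocaine and 1 control rat. Members were taken from the array's own annotation, as every row whose gene symbol began with Tnfsf or Tnfrsf or was one of Tnf, Lta, Ltb, Ltbr, Cd40, Cd40lg, Cd27, Cd70, Fas, Faslg, Ngfr, Eda, Edar and Eda2r. This gave 34 rows of 34 genes, 14 ligands and 20 receptors, among 23188 transcript clusters (sets of short probes that each measure 1 transcript group), of which 15049 carried a gene name. No row was named Eda or Eda2r. Of 46 family genes that were looked for, 12 had no named row and were not analysed here. Both animals were male Sprague-Dawley rats, 8 weeks old, kept as 1 animal per array. The cocaine rat received 20 mg/kg/day cocaine hydrochloride i.v. for 7 days, the control rat received saline by the same route, and both were sacrificed 1 day after the last dose. The sample titles call the control unstimulated, and the extraction note names spleen although titles and source name thymus. Rag1 and Dntt are used by immature thymocytes as they assemble T cell receptors. The log2 intensity of Rag1 was 18.87 on both arrays, and that of Dntt was 18.27 (control) and 18.32 (cocaine). RNA came from whole tissue, so a lower share of a cell type and less RNA per cell cannot be told apart.

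TNF family ligands are mostly membrane-anchored trimers that can be shed, and their receptors signal through TRAF adaptors toward NF-κB or, where they carry a death domain, through FADD and caspases toward apoptosis. In the thymus, RANKL, CD40 ligand and lymphotoxin from lymphoid cells drive the growth of medullary epithelial cells, while CD27, OX40 and GITR give co-stimulation to developing T cells. Fas and its ligand are known for the killing of activated lymphocytes.

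Of the 34 members, 1 was higher and 1 was lower by more than 1.5-fold after cocaine, and 32 lay within that limit. Tnfrsf12a, the receptor Fn14, was higher. Ltb, the membrane-bound chain of lymphotoxin, was lower. Among all transcript clusters 2.09% were higher and 2.51% were lower by as much, so the members' share of 5.88% in both directions stood beside 4.59% for the whole array. None of the members passed 2-fold, which 0.129% of all transcript clusters passed upward and 0.22% downward. As each group had a single array, no spread between replicates could be measured, no test was run, and the precision of each value is limited by the number of arrays.

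The regions upstream of the 4 members with the largest differences among those with an entry are shown here, with those of Tnf and Lta, the genes next to Ltb. They are the 250 bases before the annotated start in RefSeq (build GRCr8), read along each gene's own strand, for Tnfrsf12a (chr10:13213649-13213898, minus strand), Ltb (chr20:3634055-3634304, minus strand), Fas (chr1:241211905-241212154, plus strand), Tnfrsf4 (chr5:171888884-171889133, plus strand), Tnf (chr20:3626435-3626684, plus strand) and Lta (chr20:3623277-3623526, plus strand). Capitals mark matches, on either strand, to the NF-κB consensus, GGGCGG (the GC box), TATAAA (the TATA box) and TGTGGT (the Runx site). They also mark TGANTCA, the AP-1 site loosened to any middle base (N), so such a match need not be an AP-1 site.
Tnfrsf12a: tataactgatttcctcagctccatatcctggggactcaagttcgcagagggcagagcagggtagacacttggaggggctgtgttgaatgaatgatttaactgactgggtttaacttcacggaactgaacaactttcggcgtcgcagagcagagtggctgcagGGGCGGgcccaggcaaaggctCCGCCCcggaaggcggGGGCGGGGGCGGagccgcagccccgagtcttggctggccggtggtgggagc
Ltb: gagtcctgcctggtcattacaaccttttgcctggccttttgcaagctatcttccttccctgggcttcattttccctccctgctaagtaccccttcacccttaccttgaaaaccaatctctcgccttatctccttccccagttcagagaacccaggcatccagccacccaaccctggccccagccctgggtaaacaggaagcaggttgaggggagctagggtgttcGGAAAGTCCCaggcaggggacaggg
Fas: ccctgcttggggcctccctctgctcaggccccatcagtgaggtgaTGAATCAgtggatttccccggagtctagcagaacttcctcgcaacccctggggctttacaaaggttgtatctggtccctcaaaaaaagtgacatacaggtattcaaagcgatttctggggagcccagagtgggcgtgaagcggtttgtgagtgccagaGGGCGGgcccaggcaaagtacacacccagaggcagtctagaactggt
Tnfrsf4: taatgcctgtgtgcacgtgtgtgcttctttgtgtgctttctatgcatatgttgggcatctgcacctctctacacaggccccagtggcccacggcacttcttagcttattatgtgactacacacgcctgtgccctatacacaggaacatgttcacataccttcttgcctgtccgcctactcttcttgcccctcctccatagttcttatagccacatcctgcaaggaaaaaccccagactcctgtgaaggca
Tnf: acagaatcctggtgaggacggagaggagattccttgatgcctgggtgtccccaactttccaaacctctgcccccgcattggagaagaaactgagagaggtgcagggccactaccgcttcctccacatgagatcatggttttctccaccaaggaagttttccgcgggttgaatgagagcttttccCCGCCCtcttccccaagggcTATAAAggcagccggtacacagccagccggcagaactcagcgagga
Lta: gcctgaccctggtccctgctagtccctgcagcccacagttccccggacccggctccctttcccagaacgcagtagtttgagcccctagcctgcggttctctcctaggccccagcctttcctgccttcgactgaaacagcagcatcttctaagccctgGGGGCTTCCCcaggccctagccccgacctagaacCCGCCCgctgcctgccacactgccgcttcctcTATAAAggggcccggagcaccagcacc

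No marked matches overlapped. The region of Tnfrsf12a held 4 GC boxes, of which 2 lay side by side, and no match to the other motifs. The region of Ltb held 1 match, to the NF-κB consensus, from 25 to 16 bases before the start on the opposite strand. The region of Lta held an NF-κB match as well, from 93 to 84 bases before the start, along with a GC box and a TATA box. Fas had 1 TGANTCA match and 1 GC box, Tnf had 1 GC box and 1 TATA box, and none of these letters lay in the window of Tnfrsf4. Promoter entries existed for 24 of the 34 members. The NF-κB consensus was found in 4 of these 24 (Lta, Ltb, Tnfsf14 and Tnfrsf8) and in 3.54% of all 33469 promoter regions of the same length, and GGGCGG in 13 of 24 and in 30.5%. TATAAA was found in 6 of 24 (5 of 10 ligands and 1 of 14 receptors) and in 12.9% of all. TGANTCA was found in 3 of 24 and in 6.34%, and TGTGGT in 3 of 24 and in 14.5%. Each member was counted with 1 region, while the 33469 regions were not limited to genes of the array or to 1 region per gene. A match describes the letters only, and binding was not measured.

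The log2 intensity of Ltb, which anchors lymphotoxin α at the surface of lymphocytes, was 11.55 in the control rat and 10.94 in the cocaine rat, a 1.52-fold lower signal. Its receptor Ltbr was 4.22 and 4.13. The difference of Ltb was -0.61 on the log2 scale and reached -0.58, just short of 1.5-fold, after centring both arrays on their medians. Lta, the partner chain of Ltb, held the same value of 5.40 on both arrays. Tnf itself, the founding cytokine of the family, held 7.11 on both. The study, which lists PCR primers for TNF-α, reports that expression of this cytokine rose significantly in thymus after 7 days of cocaine. The equal array row is not read against that result. In the RefSeq annotation Lta, Tnf and Ltb follow each other on chromosome 20 with 0 protein-coding genes between them. Among these 3 neighbours only the row of Ltb differed between the arrays. The rows of Lta and Tnf lay under 7.47, the highest background control row, so no contrast between the neighbours is read from them. The array's IDs mark the rows of Tnf and Ltb, but not that of Lta, as not placed on the genome.

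The other ligands differed less. Tnfsf13, the B cell factor APRIL, was 8.41 in the control rat and 8.18 in the cocaine rat, a difference of -0.23. Tnfsf12, which encodes TWEAK and lies next to Tnfsf13 in the annotation, was 5.77 and 5.58 (-0.20). Both neighbours were thus lower, each by under 1.2-fold. Tnfsf10, which encodes the apoptosis-inducing ligand TRAIL, was 6.42 and 6.43. Tnfsf9, Tnfsf14 and Tnfsf15, ligands that act on activated T cells, were 5.36 and 5.38, 5.20 and 5.22, and 5.68 and 5.67. The sign of the Tnfsf15 difference (-0.01) turned positive, up to 0.03, under the 3 other scalings.

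The remaining 7 ligands held exactly the same deposited value on both arrays. Cd40lg, the T cell signal for B cells and medullary epithelium, was 8.78 on each, and Faslg, the ligand of Fas, was 6.74. Tnfsf11, which encodes RANKL, was 4.46, and Tnfsf4, the ligand of OX40, was 4.57. Cd70, the ligand of CD27, was 4.78, and Lta and Tnf are given above. Identical values thus made up 7 of 14 ligands (50.0%) but 1 of 20 receptors (5.0%), beside 27.2% of all transcript clusters and 30.9% of those with a mean below the median of the array. Among control rows, all 23 background rows and 41 of 63 spike-in rows were identical too, but only 29 of 1153 negative and 10 of 399 positive control rows. Whether an identical value came from the tissue or from the way the arrays were summarized was not tested. None is therefore read as an unchanged gene.

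Signal strength set a limit on these readings. The 23 control rows whose IDs mark them as background lay between 3.13 and 7.47 on the log2 scale, each with the same value on both arrays. Above 7.47 on both arrays were 3 ligands (Ltb, Cd40lg and Tnfsf13) and 9 receptors. These made up 12 of 34 members (35.3%), beside 41.3% of all transcript clusters. The other 22 members could not be set apart from this range. Of those 22 members 6 were identical on both arrays (27.3%), beside 30.1% of all transcript clusters not above the background rows. Of the 12 brighter members 2 were identical, Cd40lg and Tnfrsf1b (16.7%), beside 23.0% of all transcript clusters above those rows.

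**Figure D1:**
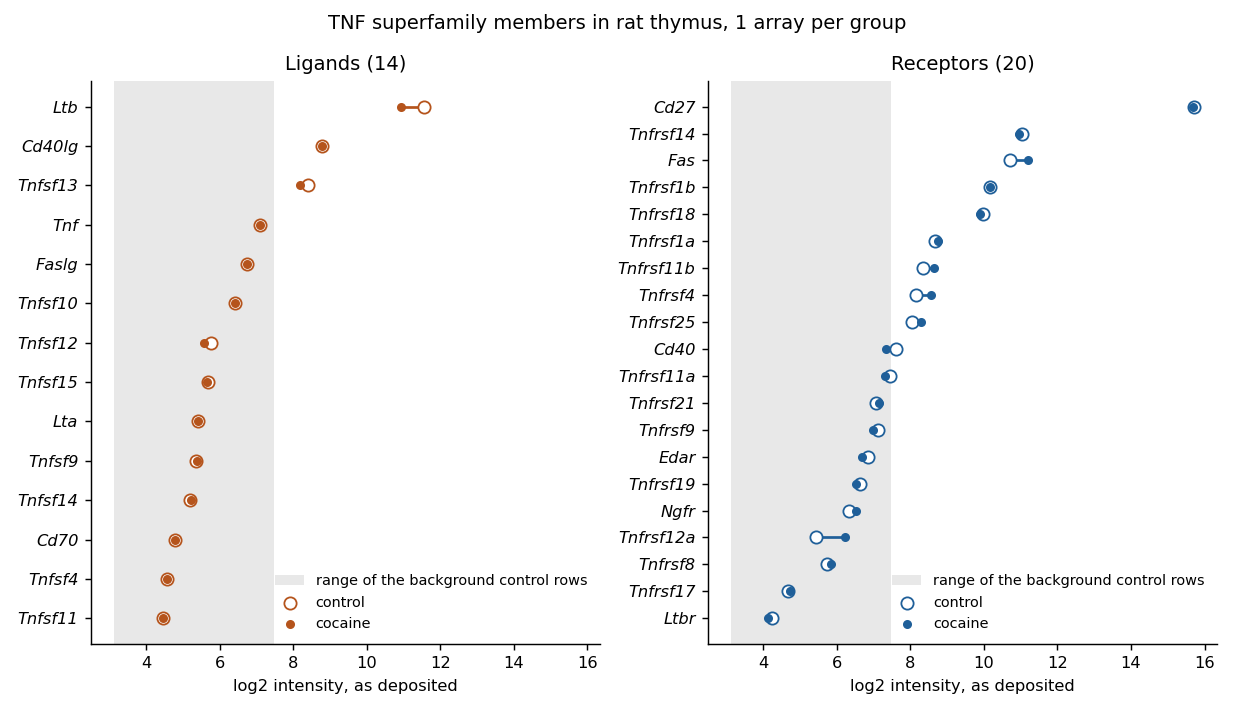
Log2 intensity of the 14 ligands (left) and 20 receptors (right) on the control array (open circles) and the cocaine array (filled circles), 1 array each, with rows ordered by mean signal for display only. Most circles lie on top of each other, while Ltb moves left from 11.55 to 10.94 and Tnfrsf12a moves right from 5.44 to 6.21 inside the grey band, which spans the background control rows (3.13 to 7.47).

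Among the death domain receptors, 5 of 6 were higher after cocaine by some amount and none passed 1.5-fold. Fas, which starts apoptosis through FADD and caspase-8, was 10.70 in the control rat and 11.21 in the cocaine rat, higher by 1.42-fold. Its difference of 0.51 lay inside the central 95% of all transcript clusters, which ran from -0.59 to 0.56. Tnfrsf25, the receptor DR3 of T cells, was 8.04 and 8.28 (0.24). Ngfr, which binds neurotrophins and not a TNF ligand, was 6.34 and 6.53. Tnfrsf21, the receptor DR6, was 7.06 and 7.15, and Tnfrsf1a, the main TNF receptor of most cells, was 8.67 and 8.76. Edar, the ectodysplasin receptor of skin appendages, was the lower one at 6.86 and 6.68. The median of these 6 was 0.14, beside 0 over all transcript clusters, and among transcript clusters in the brighter part of the array (mean signal not under the median) 45.5% were higher and 31.0% lower by some amount.

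Tnfrsf12a, an inducible receptor for TWEAK that is known from injured tissue, had the largest difference of the family on the values as deposited. It was 5.44 in the control rat and 6.21 in the cocaine rat, higher by 1.70-fold, inside the range of the background rows on both arrays. The difference of 0.77 was 0.60 when 16 was added to the linear values before log2, about the size that Ltb kept (-0.60). Its ligand Tnfsf12 moved the other way, at 5.77 and 5.58.

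Of the co-stimulatory receptors of T cells, Tnfrsf4, which encodes OX40, was 8.15 in the control rat and 8.56 in the cocaine rat, higher by 1.33-fold. Tnfrsf18, which encodes GITR and follows Tnfrsf4 on chromosome 5 with 0 protein-coding genes between them, was 9.97 and 9.91. These neighbours therefore differed by 0.41 and -0.06. Cd27, a co-stimulatory receptor carried by thymocytes, was 15.72 and 15.69. Tnfrsf14, the receptor HVEM, was 11.02 and 10.96, and Tnfrsf9, an activation receptor, was 7.11 and 6.98. Tnfrsf8, which encodes CD30, was 5.74 and 5.84. Tnfrsf1b, the TNF receptor of lymphoid and myeloid cells, was the only receptor with identical values, at 10.18.

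Cd40, through which T cells act on B cells and medullary epithelium, was 7.61 in the control rat and 7.35 in the cocaine rat, a difference of -0.27 and the lowest among the receptors. Tnfrsf11a, the receptor RANK of medullary epithelial precursors and osteoclasts, was 7.44 and 7.30, and neither of these receptors was above the background rows on both arrays. Tnfrsf11b, which encodes osteoprotegerin, a soluble decoy for RANKL, was 8.33 and 8.64, higher by 1.24-fold. Hence the RANKL row was equal on both arrays, the RANK row differed by -0.13 and that of the decoy by 0.31. Tnfrsf19, a receptor of epithelial cells, was 6.62 and 6.51, and Tnfrsf17, the plasma cell receptor BCMA, was 4.68 and 4.71.

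**Figure D2:**
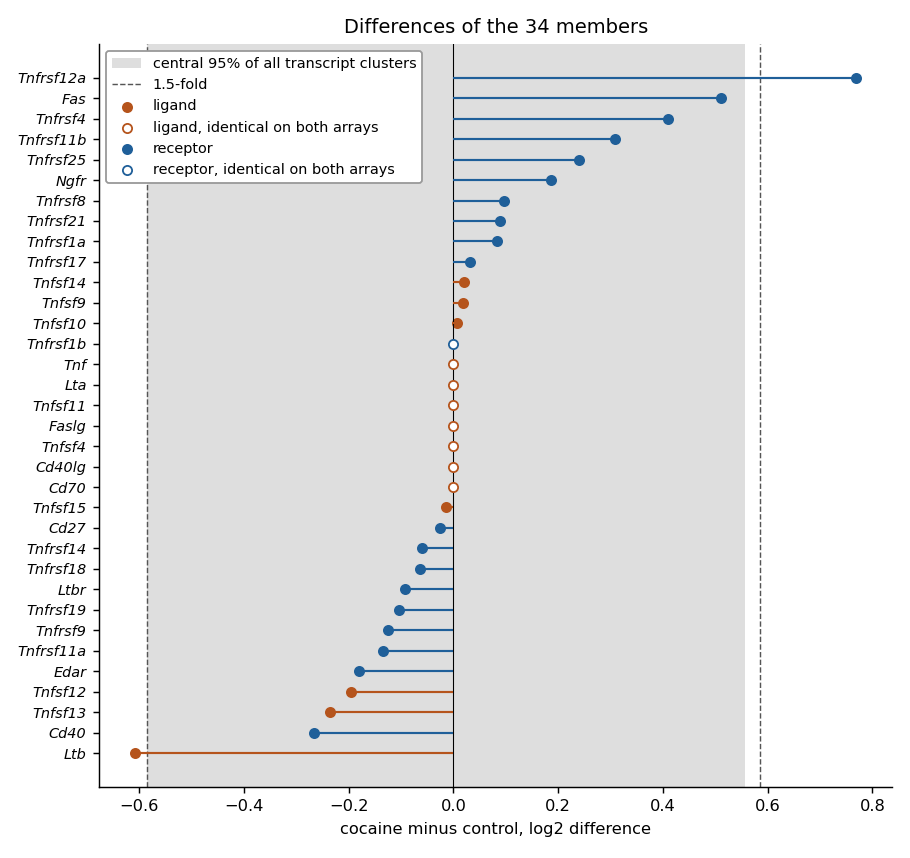
Cocaine minus control log2 difference of each of the 34 members, with ligands in orange, receptors in blue and open circles for values identical on both arrays. Dashed lines mark 1.5-fold and the grey band the central 95% of all transcript clusters (-0.59 to 0.56). Only Tnfrsf12a (0.77) and Ltb (-0.61) lie past the dashed lines, and 7 of the 8 open circles are ligands.

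The ligands ran from -0.61 to 0.02 with a median of 0, and the receptors from -0.27 to 0.77 with a median of 0.02. The order of these medians turned under quantile normalization (0.04 for ligands and -0.02 for receptors) and after a lowess curve was subtracted (0.01 and 0.0086), so no order is read from them. The median size of a difference, without its sign, was 0.0030 for ligands, 0.12 for receptors and 0.092 for all transcript clusters. However, 11 of the 14 ligands were not above the background rows on both arrays, 6 of them with identical values. Among members above those rows the order turned, with a median size of 0.235 for 3 ligands and 0.0839 for 9 receptors, so no order is read from the sizes either. Without the identical values it was 0.020 for 7 ligands, 0.13 for 19 receptors and 0.17 for 16888 transcript clusters. By any amount, 3 ligands were higher, 4 lower and 7 equal, and 10 receptors were higher, 9 lower and 1 equal. Over all transcript clusters 37.0% were higher, 35.9% lower and 27.2% equal. No difference in direction between ligands and receptors is read from these counts. For comparison, the median size was 0.080 for 52 chemokines and their receptors and 0.11 for 71 interleukins and their receptors, of which 28.8% and 26.8% held identical values.

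**Figure D3:**
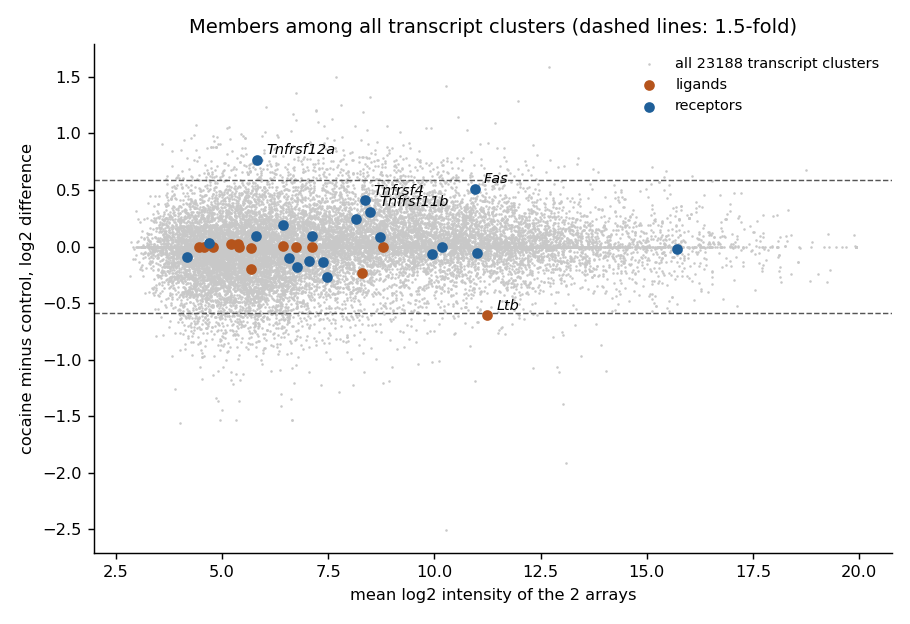
Cocaine minus control log2 difference against mean log2 intensity for all 23188 transcript clusters (grey), with ligands in orange, receptors in blue and dashed lines at 1.5-fold. Members lie within the grey cloud, Tnfrsf12a (0.77) at a dim mean signal and Ltb (-0.61) and Fas (0.51) at a brighter one.

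Ligands were then placed beside the receptors they are known to bind. In 18 pairs with both genes measured, 10 had a ligand with identical values on both arrays. These were the same 7 ligands as above, since Tnf, Lta and Tnfsf11 stood in more than 1 pair. In 17 pairs at least 1 partner lay within 0.1 of equality. Taken singly, 20 of 34 members and 11970 of 23188 transcript clusters lay that close, so the pair count is not read as a result. The exception was TWEAK and Fn14, at -0.20 for Tnfsf12 and 0.77 for Tnfrsf12a, neither of them above the background rows. Where the ligand row was equal, the receptor difference ran from -0.27 for Cd40 to 0.51 for Fas, with Tnfrsf4 at 0.41.

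**Figure D4:**
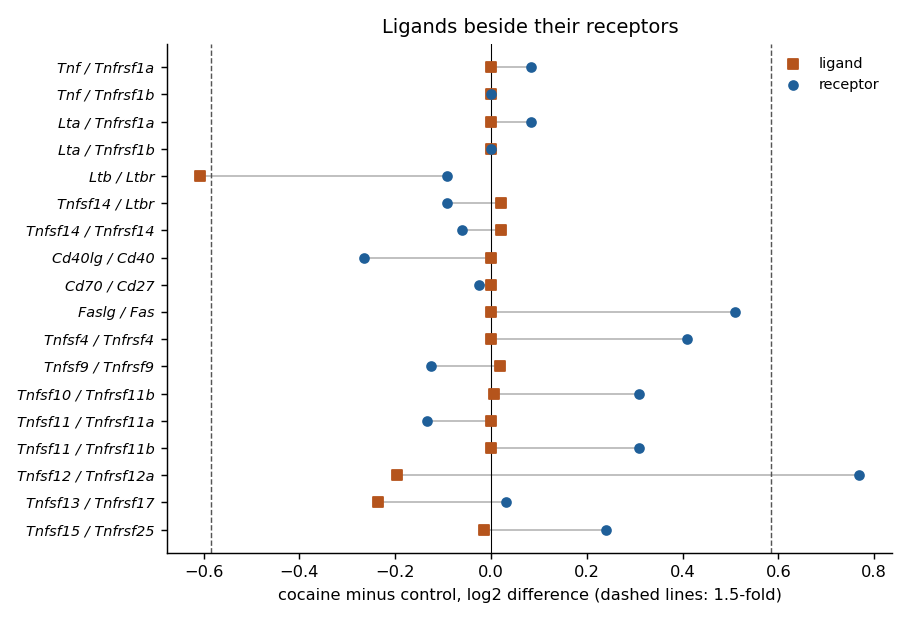
Cocaine minus control log2 difference of the ligand (orange square) and the receptor (blue circle) in each of 18 known pairs, with dashed lines at 1.5-fold. Squares gather at 0 except those of Ltb (-0.61), Tnfsf13 (-0.23) and Tnfsf12 (-0.20), while circles spread from -0.27 to 0.77.

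Genes that act with or below these receptors were described from 7 lists of 73 genes, of which 62 had a row. Past the 1.5-fold limit lay 2 of these 62, both of them higher (3.23%, beside 4.53% of all named transcript clusters in both directions). The 2 genes were Traf2, an adaptor that the study picked from these arrays, at 9.40 in the control rat and 10.44 in the cocaine rat, and Fadd, the adaptor of Fas, at 8.20 and 8.96. The other adaptors lay within 1.5-fold, with Traf4 at 7.31 and 7.65, Traf3ip2 at 8.51 and 8.75, and Traf6 at 12.17 and 11.95. Of the death receptor genes, Casp8, the initiator caspase of Fas, was 13.58 on both arrays, and Cflar, its inhibitor, was 13.90 and 14.09. Cradd, a death domain adaptor, was 9.33 and 9.03.

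Core genes of the NF-κB pathway lay on the higher side without passing 1.5-fold. In the canonical list 6 of 8 genes were higher, 0 lower and 2 identical, with a median of 0.23, and in the noncanonical list all 3 were higher, with a median of 0.28. Chuk, which encodes the kinase IKKα, was 10.87 and 11.44, and Map3k14, the kinase NIK that lymphotoxin, CD40 and RANK signal through, was 7.59 and 7.95. Nfkbia, an inhibitor that NF-κB induces, was 12.25 and 12.53. Both lists mix inhibitors with activators of the pathway, so no direction of signaling is read from their medians. Of 10 genes of the ubiquitin and kinase complexes at TNF receptors, 7 were higher, 1 lower and 2 identical, with a median of 0.17, and Map3k7, the kinase TAK1, was 12.27 and 12.69. The median of 18 NF-κB response genes was 0, with 5 higher, 7 lower and 6 identical. Of these 18, 11 were not above the background rows on both arrays, whereas all genes of the canonical and noncanonical lists were, and a difference between the lists was not tested. Vcam1, an endothelial adhesion molecule, was 9.95 and 9.56, the chemokine gene Cxcl10 was 8.62 and 8.32, and Tnfaip2 was 8.14 and 8.46. Adam17, the protease that sheds TNF and its receptors, was 10.72 and 10.61, and Timp3, an inhibitor of Adam17, was 9.33 and 9.58. Of the 5 shedding genes 1 was higher, 2 were lower and 2 were identical. The lists with higher medians can be set only against the whole array, whose median was 0 and whose brighter part was higher in 45.5% and lower in 31.0%.

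**Figure D5:**
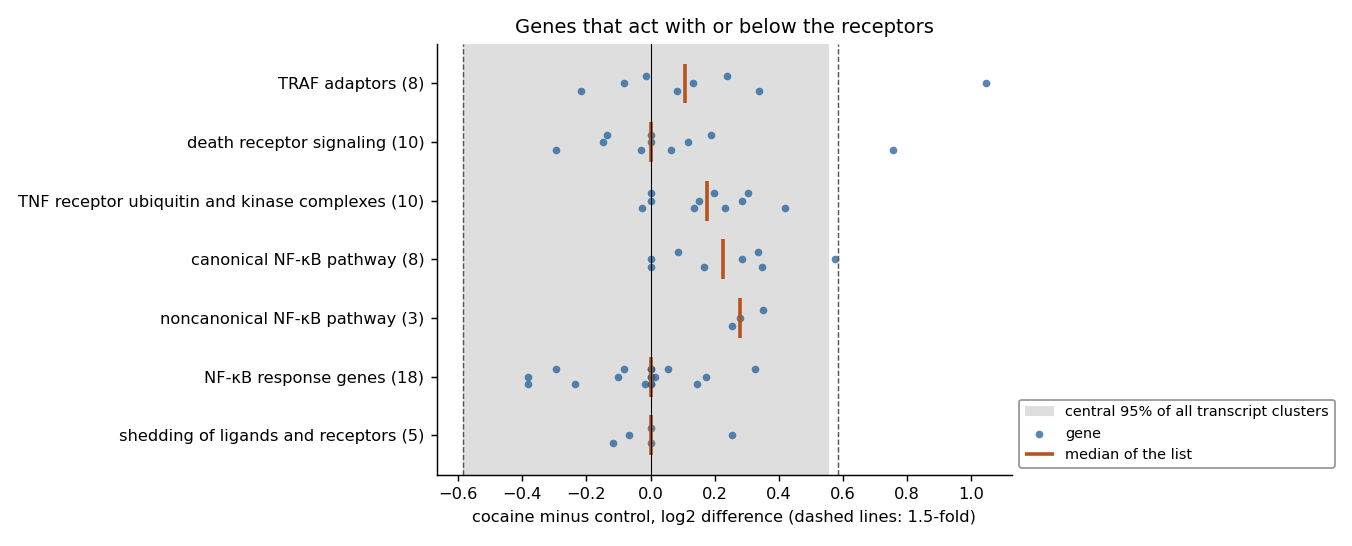
Cocaine minus control log2 difference of single genes (blue) in 7 lists of signaling genes, with the number of measured genes in brackets, the list median (orange bar), 1.5-fold (dashed lines) and the central 95% of all transcript clusters (grey). Traf2 and Fadd lie past the dashed line, and the medians of the canonical and noncanonical NF-κB lists are 0.23 and 0.28, with that of the response genes, most of them not above the background rows, at 0.

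Markers of cells that carry family members were read beside these values, and their part in the differences was not tested. The 10 thymocyte markers had a median of -0.0003, with 4 higher, 5 lower and 1 identical. Their summed intensity was 1298000 (control) and 1266000 (cocaine), in which Rag1 and Dntt, the brightest of the 10, weigh most. Cd4 was 16.67 and 16.40, Cd8a was 16.65 and 16.42, and Rag2 was 11.11 and 11.46. Medullary epithelial markers, the main targets of RANKL, had 4 of 7 identical values and a median of 0, with Aire at 6.38 and 6.27. All 6 cortical epithelial markers were higher, with a median of 0.30 and Foxn1 at 8.74 and 9.18. B cell markers (5 genes) and regulatory T cell markers (4 genes) had medians of 0.0049 and -0.02, with Cr2 at 7.46 and 7.82, Ikzf2 at 11.10 and 11.25, and Foxp3 at 6.46 and 6.43. Among 9 markers of macrophages and dendritic cells 6 were higher and 1 was lower, with a median of 0.17. Over all transcript clusters 37.0% were higher and 35.9% lower. Cd83 (11.20 and 12.07) and Csf1r (5.93 and 6.57) passed 1.5-fold, as did 4.59% of all transcript clusters. Summed intensity was 5117 (control) and 7370 (cocaine), and most of that rise came from Cd83, the brightest of the 9. Csf1r was among 5 of the 9 that were not above the background rows on both arrays. Of 6 endothelial markers 3 were higher, 1 was lower (Emcn, 7.31 and 7.09) and 2 were identical, with a median of 0.08. Tek passed 1.5-fold as well, at 7.00 and 7.61, but was not above the background rows on both arrays. The median of 6 cytotoxic cell markers was 0, with Ncr1 at 6.04 and 6.20. Adipoq (9.53 and 8.34) and Fabp4 (12.85 and 11.77), picked by the study from these arrays, were lower among 5 adipocyte markers, whose median was 0. Of 5 erythroid markers 3 were lower and 2 higher, with a median of -0.09. Hba-a1 (11.92 and 11.20) and Slc4a1 (5.53 and 4.19) were lower by more than 1.5-fold. Alas2 (5.56 and 6.05) and Hbb (8.46 and 8.48) were the higher ones. Slc4a1 and Alas2 were not above the background rows.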

How the data were processed

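Biotin-labelled thymus RNA was measured on Clariom S rat arrays, 1 for the cocaine rat and 1 for the control rat. The authors analyzed the arrays with TAC software and deposited 1 linear intensity per row. For the software version, background correction, normalization and build, nothing was found (not given in the sources used here). The deposited table held 24834 rows. Of these, 1646 control rows were left out of all counts, which left 23188 transcript clusters, 15049 of them with 1 gene name from the platform annotation and 8139 with none here. Median intensity was 108 in the control and 107 in the cocaine array. All 34 members had 1 row each, and their symbols were unchanged in the RefSeq table (assembly GRCr8).

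Values were taken to log2 without further scaling. An earlier report on these data applied quantile normalization, which gives differences to rows that are identical as deposited. It was kept here as an alternative, with median centring, a lowess curve (span 0.3), 16 added before log2, filters at the 25th percentile and the median of mean signal, a 2-fold limit, and the mean of a gene's rows. Each fold divides the brighter by the dimmer intensity and is compared with a limit of 1.5-fold. Where a gene had several rows, that with the highest mean was used. No test was run. Members, lists and limits were chosen with earlier results of these data known. Named genes are all members, and in each list the genes past 1.5-fold and up to 3 others with the largest differences above the 25th percentile. Casp8 and Nfkbia are exceptions, chosen once their values were known. Rag1 and Dntt check the tissue. Counting past a fold was tested on simulated data. Promoter regions came from RefSeq (GRCr8). The work was done in Python 3.11.15 (statsmodels 0.14.6, pandas 2.3.3, numpy 2.4.6, matplotlib 3.10.9).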

Additional observations from a re-analysis of the deposited data

How the results depend on the processing

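No paired analysis was possible because there was 1 array for cocaine and 1 for control, which also left no replicate to leave out. The count of 1 member lower by more than 1.5-fold became 0 after centring both arrays on their medians, where Ltb reached -0.58. The count of 1 higher became 0 among rows with a mean not under the array's median, since Tnfrsf12a lies under it, and both counts were 0 at 2-fold. Tnfrsf12a differed by 0.60 after 16 was added before log2 and by up to 0.81 under the other settings. Ltb ran from -0.65 to -0.58 and Fas from 0.45 to 0.53. Quantile normalization gave the 8 identical members differences from -0.08 to 0.05. No member past 1.5-fold changed sign. Averaging the rows of a gene could change no member, since each of the 34 had 1 row. Among 1153 rows marked as negative controls, whose number of probes is not given in the sources used here, 31.0% differed by more than 1.5-fold between the arrays.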
